A study of Mus musculus with 12 samples.

Results

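The 10 genes Hhip, Ptch1, Npnt, Tns1, Mfap2, Thsd4, Adgrg6, Htr4, Fam13a and Gstcd are the mouse orthologs of genes named at human loci associated with lung function or chronic obstructive pulmonary disease (COPD), as ADAM19 is. They were taken by symbol from a table of 55679 genes, in which all 10 had a row, and they have 71 of the 147907 transcripts of the transcript table. RNA was sequenced from the whole lung and whole heart of 6 male mice aged 9 to 13 weeks on the 129S6/SvEvTac background, 3 wildtype (WT) and 3 Adam19 knockout (KO), which gave 12 libraries, 3 for each tissue and genotype. In the KO, Adam19 exons 6 and 7 are replaced by a tdTomato reporter construct in every cell of the body, so the allele is not specific to a tissue. The lung and the heart with the same genotype and replicate number came from the same mouse, and the labels name no treatment. The mouse identifiers of WT and KO mice share no prefix, so whatever the prefix stands for cannot be told apart from genotype.

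Hedgehog ligands are secreted proteins that act on the receptor patched, and HHIP binds the ligands and holds them away from it. In the lung this pathway is best known from branching of the airways and from signals between epithelium and mesenchyme. Microfibrils are the fibrillin scaffold on which elastic fibres are laid down, and MFAP2 (MAGP-1) and THSD4 (ADAMTSL6) are microfibril proteins. Nephronectin, encoded by Npnt, is a basement membrane ligand of integrin alpha 8 beta 1, and tensin 1 (Tns1) links integrins to the actin cytoskeleton inside the cell. ADGRG6 (GPR126) is an adhesion G protein-coupled receptor known from myelination and from heart and vessel development, and HTR4 is a serotonin receptor that raises cyclic AMP. FAM13A has been tied to turnover of beta-catenin, and GSTCD carries a glutathione S-transferase C-terminal domain.

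Tns1 and Npnt have cassette exons, which a transcript may hold or skip, and these exons are shown first. Tns1 spans 73949390 to 74163731 of chromosome 1 (GRCm39, reverse strand) and has a 24-nucleotide exon at chr1:73975491-73975514 and a 39-nucleotide exon at chr1:73975057-73975095. Npnt spans 132587506 to 132656257 of chromosome 3 (reverse strand) and has a 51-nucleotide exon at chr3:132637343-132637393 and a 93-nucleotide exon at chr3:132620134-132620226. Each of these exons is coding over its whole length in GENCODE vM39 and is a multiple of 3 nucleotides, with 8, 13, 17 and 31 codons' worth of sequence in turn. The sequences are those of the reverse strand, 5′ to 3′, with the exon in capitals and 10 intronic bases in lower case on each side.
Tns1 24-nucleotide exon: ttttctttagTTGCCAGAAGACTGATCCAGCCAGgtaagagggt
Tns1 39-nucleotide exon: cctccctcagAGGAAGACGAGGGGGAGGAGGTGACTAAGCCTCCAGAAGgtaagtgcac
Npnt 51-nucleotide exon: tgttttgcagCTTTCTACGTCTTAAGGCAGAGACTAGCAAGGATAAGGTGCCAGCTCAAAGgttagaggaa
Npnt 93-nucleotide exon: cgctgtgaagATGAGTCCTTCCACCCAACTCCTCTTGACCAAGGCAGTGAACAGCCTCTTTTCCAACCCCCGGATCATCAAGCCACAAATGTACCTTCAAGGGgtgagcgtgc

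The deposited values are on a log2 scale, 1 value for each gene and library, and are called gene values below. The estimated read counts summed to between 17674788 and 28043361 in the lung libraries and between 18392292 and 35862932 in the heart libraries. The small RNA gene Rn7s1 took between 2.1% and 34.0% of the summed abundance in the lung libraries, unequally within each genotype. Adam19, the targeted gene, had gene values of 9.14, 9.41 and 9.12 in WT lungs and 4.44, 3.21 and 3.496 in KO lungs, and of 9.17, 9.25 and 10.27 in WT hearts and 6.67, 6.01 and 6.56 in KO hearts, so WT and KO libraries did not overlap in either tissue. All 5 alveolar type 2 markers and all 5 alveolar type 1 markers were higher in WT lungs than in WT hearts, and all 6 heart muscle markers were lower, past every threshold of the test. In these bulk samples fewer cells of a type and less RNA per cell cannot be told apart, and p-values measure the spread between these 6 mice.

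**Figure D1:**
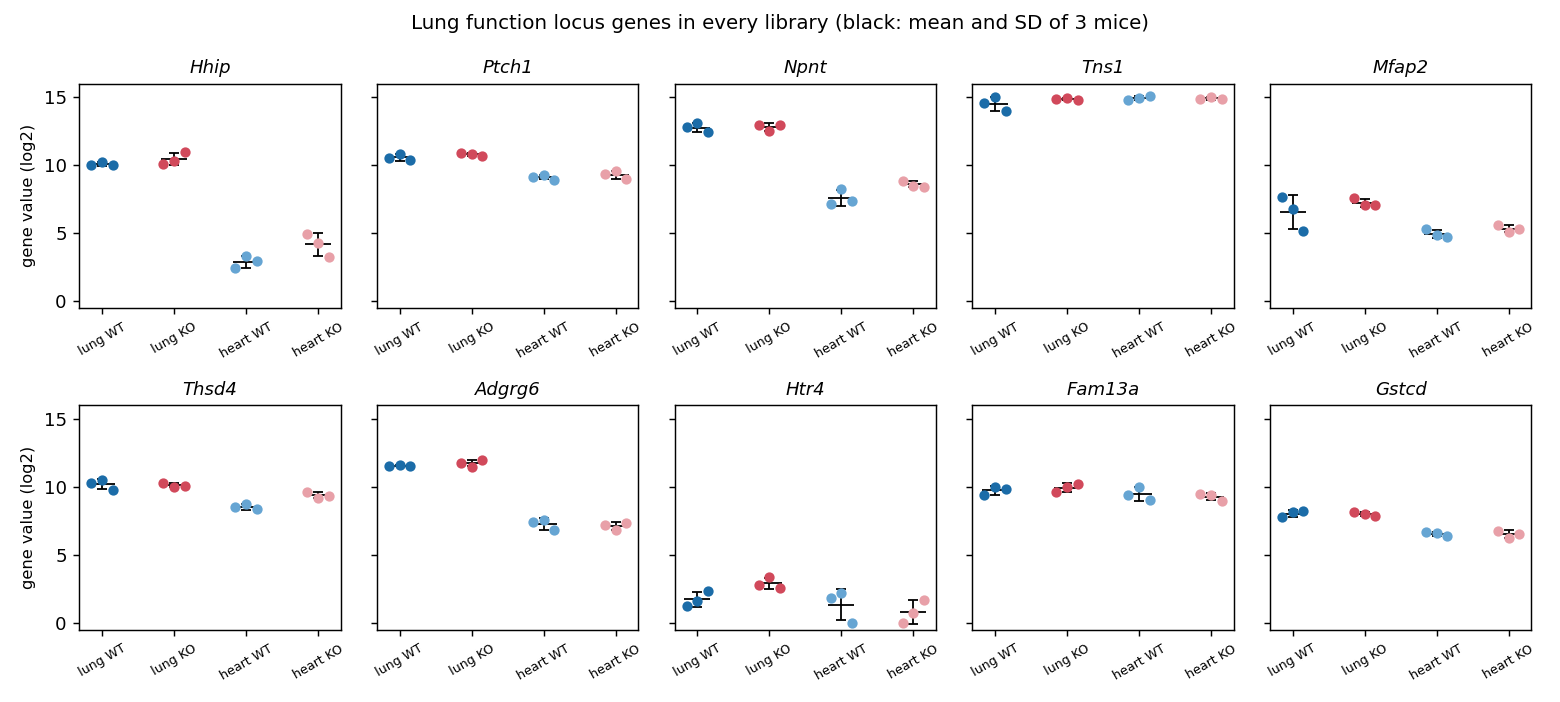
Gene value (log2, vertical axis) of each locus gene in the 12 libraries, in the order lung WT, lung KO, heart WT and heart KO, with 1 point for each mouse and a black mark for the mean and SD of 3 mice. Hhip fell from values near 10 in the lung to values under 5 in the heart, Tns1 stayed near 15 in every library but 2 WT lungs, at 14.55 and 14.002, and Htr4 reached 3.37 at most.

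Most locus genes had more RNA in lungs than in hearts. Of the 9 genes that could be tested, 7 were higher in WT lungs than in WT hearts (limma with Benjamini-Hochberg adjustment over 16636 genes, adjusted p under 0.05, at least 1.5-fold, and 6 or more as the mean of the higher group) and none was lower. Over all genes tested, 29.7% passed as higher in the lung and 20.5% as lower. In KO mice 8 of 9 were higher in the lung and none was lower, where 30.9% of all genes passed as higher and 22.3% as lower. The median difference, lung minus heart, was 1.58 log2 units over the 9 locus genes in WT mice against 0.30 over all genes tested, and 1.51 against 0.28 in KO mice. Htr4 was below the minimum value for the test, 3.46 (the log2 of 1 + 10 counts) in at least 3 libraries, in every comparison.

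The difference between the tissues was largest for the hedgehog antagonist Hhip (chromosome 8, 80692480 to 80784658, reverse strand). Its gene values were 9.98, 10.25 and 10.04 in WT lungs and 2.43, 3.30 and 2.92 in WT hearts. In KO mice they were 10.07, 10.34 and 10.95 in lungs and 4.95, 4.30 and 3.27 in hearts, so no heart library came near a lung library. The log2 difference, lung minus heart, was 7.21 (SE 0.30, adjusted p = 6.1e-07 from limma) in WT and 6.28 (SE 0.42, adjusted p = 3.54e-06) in KO mice. The heart values rest on few reads, with estimated counts between 3.4 and 32.9 in the heart libraries against 829 to 2022 in the lung libraries. In WT mice Hhip reached the minimum value for the test through the lungs alone. Ptch1 (chromosome 13, 63656142 to 63721412, reverse strand), which encodes the hedgehog receptor and is itself a target gene of the pathway, differed far less. It read 10.50, 10.85 and 10.38 in WT lungs and 9.14, 9.26 and 8.93 in WT hearts, and 10.92, 10.81 and 10.68 in KO lungs and 9.34, 9.57 and 8.97 in KO hearts. All lung libraries lay above all heart libraries, by 1.46 log2 units in WT (SE 0.18, adjusted p = 0.000178) and 1.51 in KO mice (SE 0.16, adjusted p = 5.15e-05).

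Among the matrix and adhesion genes, Npnt had a large lung excess and Tns1 had none. Npnt read 12.79, 13.10 and 12.40 in WT lungs and 7.10, 8.28 and 7.37 in WT hearts, a log2 difference of 5.18 (SE 0.31, adjusted p = 3.29e-06). In KO mice it read 12.97, 12.49 and 12.96 in lungs and 8.84, 8.49 and 8.43 in hearts, a log2 difference of 4.22 (SE 0.17, adjusted p = 2.78e-07). The Npnt means of the genotypes lay further apart in the hearts than in the lungs. Neither the heart difference nor its inequality with the lung passed, as given below. Tns1 read 14.55, 14.999 and 14.002 in WT lungs and 14.77, 14.95 and 15.06 in WT hearts. It read 14.88, 14.95 and 14.77 in KO lungs and 14.83, 15.05 and 14.84 in KO hearts, and its tissues overlapped in both genotypes. The log2 difference, lung minus heart, was −0.41 (95% confidence interval −1.06 to 0.24) in WT and −0.04 (−0.42 to 0.34) in KO mice, so Tns1 did not pass in either. With libraries scaled to equal totals its sign turned, to 0.01 in WT and 0.63 in KO mice, and the KO difference then passed (adjusted p = 0.0147, over a range of 0.0147 to 0.981 across the alternatives).

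Both microfibril genes were higher in the lung, Thsd4 clearly and Mfap2 with less certainty. Thsd4 (chromosome 9, 59874214 to 60429329, reverse strand) read 10.32, 10.48 and 9.80 in WT lungs and 8.497, 8.75 and 8.34 in WT hearts, and the log2 difference was 1.67 (SE 0.22, adjusted p = 0.000237). In KO mice it read 10.29, 10.02 and 10.03 in lungs and 9.64, 9.17 and 9.36 in hearts, a log2 difference of 0.72 (SE 0.15, adjusted p = 0.00215). This smaller difference fell to 0.58, below the 1.5-fold threshold, when the library medians were set equal. Mfap2 (chromosome 4, 140737729 to 140743295, forward strand) read 7.62, 6.79 and 5.18 in WT lungs and 5.28, 4.89 and 4.68 in WT hearts, so the third WT lung fell inside the range of the hearts. The log2 difference in WT mice was 1.58 (SE 0.58, adjusted p = 0.0426). The call was lost without lung WT replicate 1 or 2 or any 1 of the 3 WT hearts (adjusted p between 0.0661 and 0.146), and with no filter, equal library medians, no variance trend or limma-voom (0.0562 to 0.0835), and the difference was 1.04 without lung WT replicate 1 and 2.26 without replicate 3. In KO mice Mfap2 read 7.56, 7.05 and 7.07 in lungs and 5.56, 5.11 and 5.33 in hearts, and the tissues were well apart, by 1.89 (SE 0.24, adjusted p = 0.00014).

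Of the receptors, Adgrg6 (chromosome 10, 14277458 to 14421421, reverse strand) was among the 3 genes with the largest lung excess. Its gene values were 11.52, 11.62 and 11.57 in WT lungs and 7.43, 7.57 and 6.80 in WT hearts. In KO mice they were 11.77, 11.49 and 11.96 in lungs and 7.19, 6.82 and 7.35 in hearts. The log2 difference was 4.30 in WT (SE 0.22, adjusted p = 1.48e-06) and 4.62 in KO mice (SE 0.18, adjusted p = 2.19e-07). Htr4 was at the edge of detection. Its gene values were 1.25, 1.63 and 2.32 in WT lungs and 2.77, 3.37 and 2.57 in KO lungs, and 1.86, 2.15 and 0 in WT hearts and 0, 0.69 and 1.70 in KO hearts. They rest on estimated counts of 0 to 19.1 a library, and Htr4 is the only locus gene that the gene table does not mark as detected. The KO lungs lay above the WT lungs (exact two-sided permutation test, p = 0.10, the smallest that 3 mice against 3 allow), but a fit without a minimum value gave a log2 difference of 1.17 with a 95% confidence interval of −0.05 to 2.39 (adjusted p = 0.86 from limma).

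Gstcd and Fam13a encode proteins that act inside the cell. Gstcd passed as higher in the lung in both genotypes and Fam13a in KO mice, though the Fam13a difference did not pass as unequal between genotypes (0.38, adjusted p = 0.799 from limma). Gstcd (chromosome 3, 132687513 to 132797914, reverse strand) read 7.77, 8.14 and 8.21 in WT lungs and 6.68, 6.60 and 6.36 in WT hearts, a log2 difference of 1.49 (SE 0.24, adjusted p = 0.000705). It read 8.15, 7.99 and 7.84 in KO lungs and 6.79, 6.26 and 6.56 in KO hearts, a log2 difference of 1.46 (SE 0.20, adjusted p = 0.000198). The lung libraries of both genotypes lay above the heart libraries. Fam13a (chromosome 6, 58909075 to 59001534, reverse strand) read 9.39, 9.98 and 9.86 in WT lungs and 9.40, 10.01 and 8.9999 in WT hearts, with overlapping tissues and a log2 difference of 0.27 (95% confidence interval −0.37 to 0.91). In KO mice it read 9.59, 10.02 and 10.20 in lungs and 9.505, 9.38 and 8.97 in hearts, a log2 difference of 0.65 (SE 0.20, adjusted p = 0.0161). This call was lost without lung KO replicate 2, lung KO replicate 3 or heart KO replicate 3, with adjusted p-values of 0.0557, 0.0573 and 0.0558, and with the library medians set equal (0.0533).

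**Figure D2:**
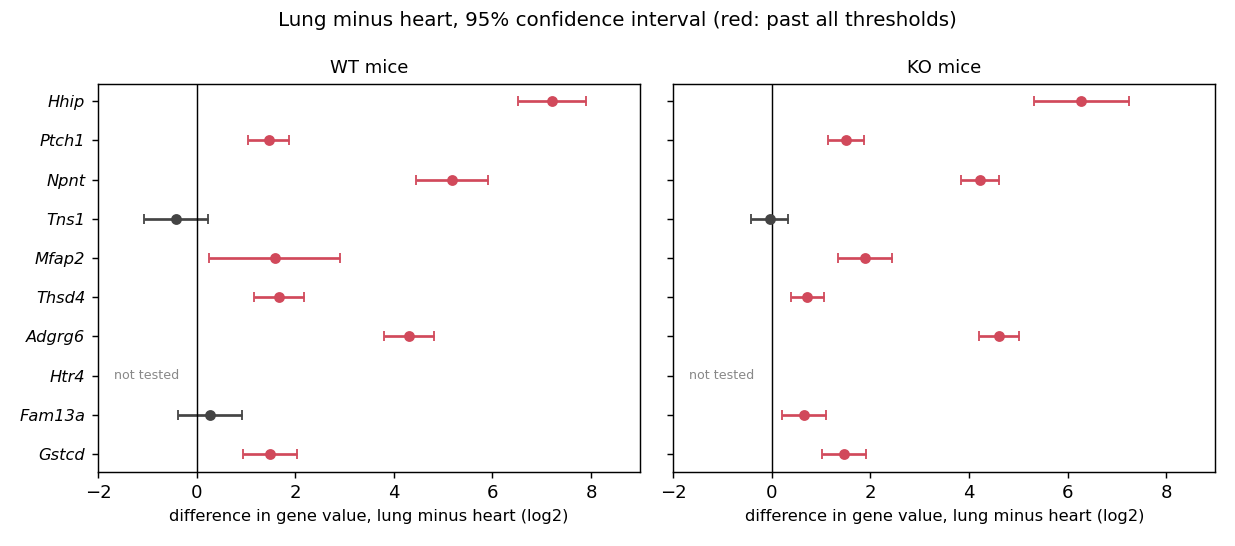
Difference in gene value, lung minus heart (log2, horizontal axis), of each locus gene in WT mice (left) and KO mice (right), with 95% confidence intervals from limma and 3 libraries for each tissue. Red points passed all thresholds, 7 of 9 in WT and 8 of 9 in KO mice, all to the right of 0, with Hhip, Npnt and Adgrg6 furthest out.

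Per kilobase of transcript, Tns1 had the highest level of the 10 genes in all 4 groups, and Htr4 the lowest. On the log2 scale of scaled counts per kilobase, the WT lung levels were 11.89 ± 0.50 (SD, n = 3) for Tns1, 10.77 ± 0.35 for Npnt and 8.98 ± 0.06 for Adgrg6, and no library of one overlapped a library of the next. Thsd4 (7.77), Ptch1 (7.76), Fam13a (7.31), Hhip (6.95), Mfap2 (6.44) and Gstcd (6.39) followed, and each of these overlapped its neighbour in that order. Htr4 stood apart at 0.70 ± 0.35. In WT hearts the order was Tns1 (12.41), Fam13a (7.10), Ptch1 (6.30), Thsd4 (6.11), Npnt (5.61), Gstcd (4.93), Mfap2 (4.83), Adgrg6 (4.67), Hhip (0.74) and Htr4 (0.53). There Tns1, Fam13a, Npnt and Adgrg6 stood clear of the next gene, while Ptch1 overlapped Thsd4, Thsd4 overlapped Npnt, and the pairs Gstcd and Mfap2, Mfap2 and Adgrg6, and Hhip and Htr4 overlapped. Npnt thus held the second place of 10 in the lung and the fifth in the WT heart, and Adgrg6 the third and the eighth.

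Loss of Adam19 was compared next, first in the lung. None of the 9 locus genes tested passed the thresholds between KO and WT lungs (limma over 16551 genes), where 11 genes or 0.0665% did over all genes tested. None had an unadjusted p under 0.05, limma-voom called none, and in none did the 3 KO lungs lie wholly above or below the 3 WT lungs, a pattern shown by 6.41% of all genes in the higher and 6.4% in the lower direction. The median log2 difference, KO minus WT, was 0.19 over the 9 genes and 0.01 over all genes. The narrowest intervals bound the differences well under 2-fold, whereas that of Mfap2 was wide. For Adgrg6 the difference was 0.17 (95% confidence interval −0.19 to 0.53), for Ptch1 0.23 (−0.16 to 0.61) and for Thsd4 −0.09 (−0.54 to 0.37). For Gstcd it was −0.04 (−0.48 to 0.40), for Npnt 0.04 (−0.45 to 0.54) and for Fam13a 0.19 (−0.31 to 0.70). These intervals span 0 and leave room for differences of up to about 0.7 log2 units. For Hhip the difference was 0.36 (−0.16 to 0.88), for Tns1 0.35 (−0.21 to 0.91) and for Mfap2 0.70 (−0.52 to 1.91). Single libraries weighed on these values. Without lung WT replicate 3 the difference was 0.02 for Mfap2, 0.0896 for Tns1 and 0.127 for Ptch1, without lung KO replicate 3 it was 0.113 for Hhip, 0.0594 for Adgrg6 and 0.0633 for Fam13a, and without lung WT replicate 1 it was 0.0168 for Fam13a.

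In the heart, Thsd4 and Npnt had the largest differences of the locus genes that could be tested, and neither passed. None of the 8 locus genes tested passed between KO and WT hearts (limma over 15303 genes), against 13 genes or 0.085% of all genes tested, and limma-voom called none. Thsd4 and Npnt had an unadjusted p under 0.05, and in both all KO hearts lay above all WT hearts, as was so for 7.82% of all genes tested. No locus gene lay wholly lower, against 5.23% of all genes. Thsd4 read 8.497, 8.75 and 8.34 in WT and 9.64, 9.17 and 9.36 in KO hearts, a log2 difference of 0.86 (SE 0.17, 95% confidence interval 0.47 to 1.25, adjusted p = 0.27 from limma). Npnt read 7.10, 8.28 and 7.37 in WT and 8.84, 8.49 and 8.43 in KO hearts, a log2 difference of 1.004 (SE 0.29, 0.35 to 1.66, adjusted p = 0.509). The exact two-sided permutation test gave p = 0.10 for each, the smallest possible here. Leaving out each heart in turn gave 0.74 to 0.97 for Thsd4 and 0.76 to 1.35 for Npnt. Across all alternatives the adjusted p ran from 0.141 to 0.971 for Thsd4 and from 0.0942 to 0.994 for Npnt. The other 6 genes tested differed by −0.19 to 0.38 log2 units, with intervals that span 0. Hhip had too few reads in WT hearts to be tested, with estimated counts of 4.8, 4.8 and 3.4 in WT and 32.9, 20.0 and 9.5 in KO hearts, and a fit without a minimum value gave 1.29 (−0.04 to 2.63, adjusted p = 0.807).

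Smooth muscle markers had higher means in the same KO hearts as Thsd4 and Npnt. All 5 markers of the list had a higher mean in KO hearts, with a median log2 difference of 0.81, and none passed the thresholds. In 4 of 5 all KO hearts lay above all WT hearts, as was so for 7.82% of all genes tested. An unadjusted p under 0.05 from limma was found for 4 of the 5, and for 1141 of all 15303 genes tested. Tagln, which encodes transgelin, read 10.29, 10.04 and 9.79 in WT and 11.66, 10.82 and 11.78 in KO hearts. Myh11, the smooth muscle myosin heavy chain, read 11.44, 11.70 and 11.17 in WT and 12.36, 11.97 and 12.41 in KO hearts. The second KO heart had the lowest KO value for both, for the marker Cnn1 (9.65, 8.63 and 9.85) and for Thsd4. It had the highest for the markers Des and Acta2, where the Acta2 values lay close together (13.26, 13.30 and 13.17). Npnt was lowest in the third KO heart. The summed level of the list, which desmin (Des) of heart muscle dominates, ran from 15.46 to 15.90 in WT and from 15.84 to 16.02 in KO hearts, and no marker was at 0 in any heart. In the lungs the same 5 markers had a median difference of 0.01, with no marker whose genotypes did not overlap. Itga8, the integrin alpha 8 chain of the nephronectin receptor, was named after its values were seen. It read 9.88, 10.38 and 9.61 in WT and 11.18, 10.52 and 11.12 in KO hearts, a log2 difference of 0.98 (SE 0.23, adjusted p = 0.397). The part of smooth muscle content in the values of Thsd4 and Npnt was not tested.

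Lung epithelial RNA was low in the hearts but unequal. The summed level of the 4 airway epithelium markers ran from 5.17 to 8.69 in WT and from 5.33 to 11.01 in KO hearts, against 17.6 to 18.6 in lungs, and 1 marker, Foxj1, was at 0 in 1 WT heart. The club cell gene Scgb3a2 read 2.01, 2.86 and 4.69 in WT and 8.36, 4.19 and 1.73 in KO hearts. Hhip, at 2.43, 3.30 and 2.92 in WT and 4.95, 4.30 and 3.27 in KO hearts, had the same order of mice in the KO but not in the WT hearts. The alveolar type 1 markers summed to 12.55 to 12.85 in WT and 12.66 to 12.99 in KO hearts and the alveolar type 2 markers to 10.34 to 10.69 and 10.11 to 10.67, with no marker of either at 0. These sums are dominated by Hopx, between 12.52 and 12.95 in the hearts, and Abca3, between 10.05 and 10.28, and so say little of lung epithelium. The surfactant gene Sftpc, at 5.51, 4.78 and 7.71 in WT and 6.90, 7.53 and 4.795 in KO hearts, varied between mice, and its genotypes overlapped. The part of such RNA in the heart values of Hhip and Npnt was not tested. In the lungs 3 of 4 airway epithelium markers lay wholly higher in KO mice, against 6.41% of all genes tested. Their median difference was 0.51, and none passed the thresholds. An unadjusted p under 0.05 from limma was found for 2 of the 4, and for 981 of all 16551 genes tested. Of the 5 alveolar type 1 markers 1, Hopx, lay wholly lower in KO lungs, and of the 5 alveolar type 2 markers 1, Sftpc. Over all genes tested 6.4% did so. The medians of these lists were −0.02 and −0.20, and neither gene passed.

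**Figure D3:**
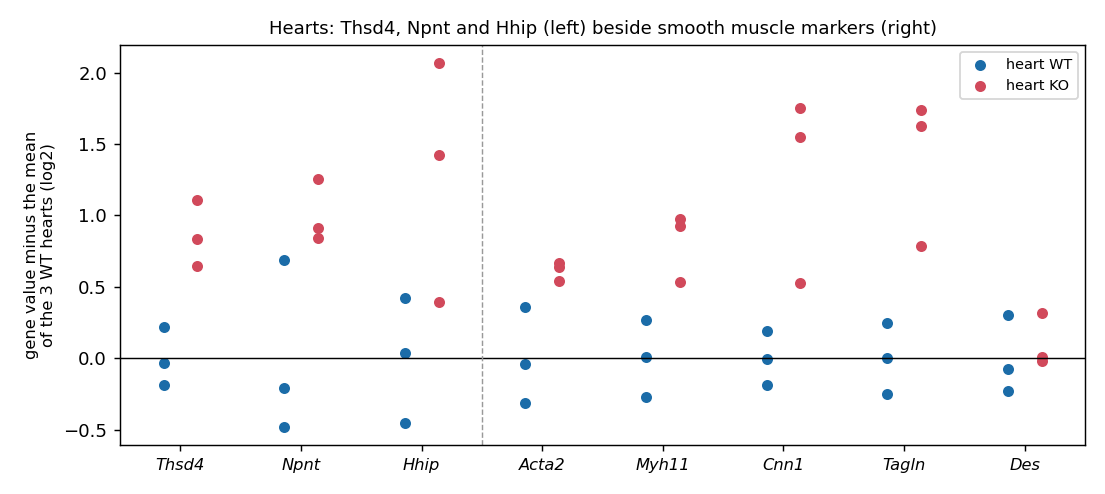
Gene value minus the mean of the 3 WT hearts (log2, vertical axis) in the 6 hearts, for Thsd4, Npnt and Hhip (left of the dashed line) and for the smooth muscle markers Acta2, Myh11, Cnn1, Tagln and Des (right), with WT in blue and KO in red. The KO points lie above the WT points for Thsd4, Npnt and 4 of the 5 markers, and overlap them for Hhip and Des.

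The genotype difference did not pass as unequal between the tissues for any locus gene. In 1 model of all 12 libraries, 0 of 9 genes tested passed (adjusted p under 0.05 from limma), against 0.00566% of 17666 genes. An unadjusted p under 0.05 was found for 2 of the 9, and for 1392 of all 17666 genes tested. For Thsd4 the difference of the genotype effects, lung minus heart, was −0.95 (SE 0.27, 95% confidence interval −1.53 to −0.36, adjusted p = 0.517 from limma). For Npnt it was −0.96 (SE 0.39, −1.81 to −0.11, adjusted p = 0.613). The remaining values, from −0.93 for Hhip to 0.38 for Fam13a, had intervals that span 0.

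**Figure D4:**
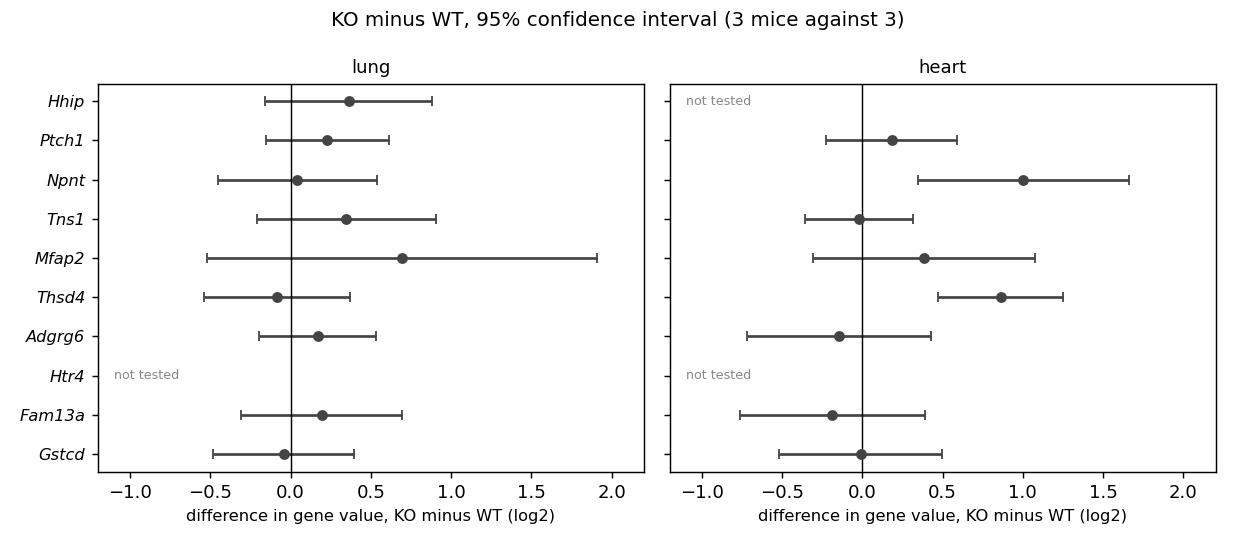
Difference in gene value, KO minus WT (log2, horizontal axis), of each locus gene in the lung (left) and the heart (right), with 95% confidence intervals from limma and 3 mice for each genotype. No gene passed the thresholds, and only the heart intervals of Thsd4 and Npnt stand clear of 0.

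Some transcripts of Tns1 differed strongly between the tissues although the gene as a whole did not. Between WT lung and WT heart, 18 of the 33 locus gene transcripts tested passed the thresholds, 14 higher and 4 lower in the lung. Over all transcripts tested, 29% passed in either direction. Of the 18, 6 belong to Tns1, which has the most transcripts of the locus genes, 23 of the 71. Most Tns1 transcripts tested did not pass, so the count of 6 does not single out Tns1. All 4 that were lower in the lung were transcripts of Tns1. ENSMUST00000169786.8, which holds both Tns1 cassette exons, made up 14.7%, 15.5% and 22.1% of the estimated Tns1 reads in WT hearts and 0.6%, 0% and 0% in WT lungs. ENSMUST00000212888.2, which holds the 39-nucleotide exon alone, made up 4.58%, 5.73% and 7.05% in WT hearts and under 0.1% in each WT lung. The hearts therefore carried both, and the lungs next to none. ENSMUST00000187691.7 was listed at 0 in all 3 WT hearts and made up 6.45%, 4.497% and 0.626% in WT lungs. ENSMUST00000189571.2 made up 1.58%, 1.90% and 3.81% in WT lungs and under 0.1% in each WT heart. The main transcript, ENSMUST00000191104.7, made up 89.0% in WT lungs and 72.0% in WT hearts on average, and its own level did not pass (log2 difference −0.30, 95% confidence interval −1.11 to 0.51).

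Counted over all transcripts that span them, the Tns1 cassette exons were included in hearts and nearly absent from lungs in both genotypes. The 24-nucleotide exon was in 15.6%, 16.1% and 23.0% of the spanning Tns1 reads in WT hearts and 16.7%, 17.5% and 8.69% in KO hearts. In lungs it was in 0.817%, 0.114% and 0.0139% in WT and 0.18%, 0.142% and 0.0122% in KO mice. The 39-nucleotide exon was in 24.1% ± 5.31 (SD, n = 3) in WT hearts and 20.3% ± 4.77 in KO hearts, and in 0.277% ± 0.38 in WT lungs and 0.0592% ± 0.0203 in KO lungs. No heart library came near a lung library (p = 0.10 for WT and for KO mice by an exact permutation test), and in neither tissue did the genotypes separate for either exon. These shares are estimates from the assignment of reads to whole transcripts, not counts of reads across the exon junctions.

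The cassette exons of Npnt behaved differently from each other. The 93-nucleotide exon was in 11.9% ± 1.48 (SD, n = 3) of the spanning Npnt reads in WT lungs and 12.5% ± 4.82 in WT hearts, and in 12.8% ± 1.41 and 13.7% ± 1.64 in KO lungs and hearts, so the 4 groups overlapped. The 51-nucleotide exon was in 7.20%, 7.35% and 6.002% in WT lungs, 7.84%, 9.33% and 6.13% in KO lungs and 5.06%, 6.50% and 5.15% in KO hearts, and it was listed at 0 in all 3 WT hearts. The WT hearts had only 153, 181 and 89.4 spanning estimated counts, so a count of 0 allows shares of up to 1.96%, 1.66% and 3.36%, counting error alone. The KO hearts stood above these limits, with 24.6, 23.9 and 19.1 estimated counts of ENSMUST00000093971.5, the transcript with both exons. Between KO and WT hearts this transcript had an unadjusted p of 0.0033 and an adjusted p of 0.514 from limma, so it did not pass. It reached the minimum value for the test through the KO hearts alone, so the unadjusted p is no support for a difference.

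**Figure D5:**
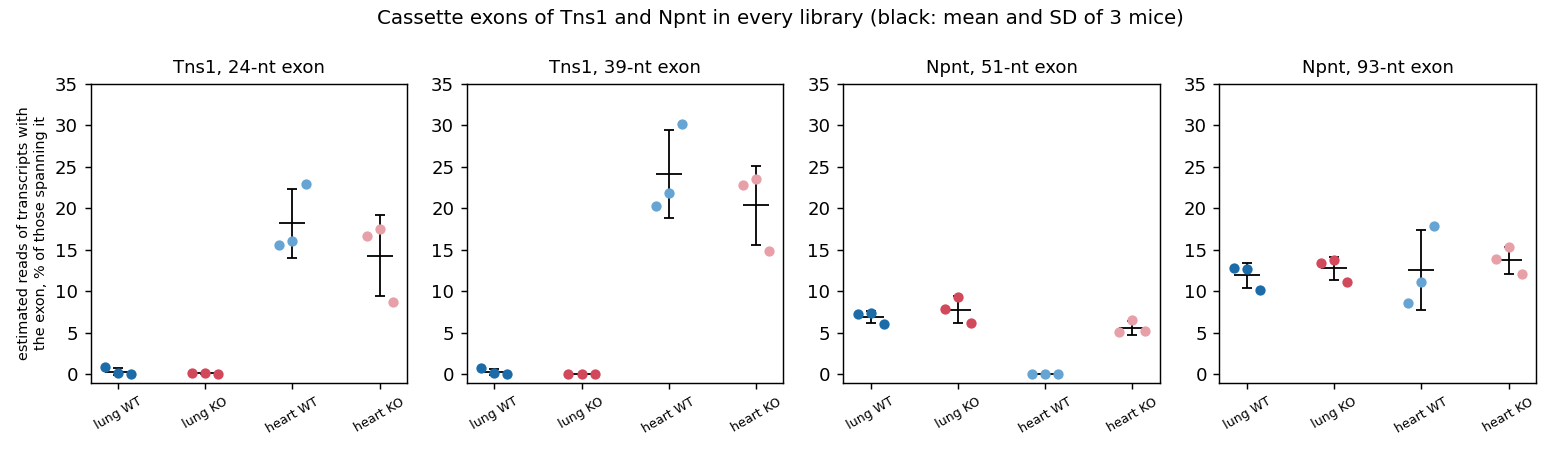
Estimated reads of transcripts that hold the exon, as a percentage of those that span it (vertical axis), for 4 coding cassette exons in the 12 libraries, with 1 point for each mouse and a black mark for the mean and SD of 3 mice. Both Tns1 exons were under 1% in every lung and between 8.69% and 30.2% in every heart, and the Npnt 51-nucleotide exon was at 0 in the WT hearts alone.

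No transcript of a locus gene passed between the genotypes. In the lung 0 of 34 passed, against 0.1% of all transcripts tested, and in the heart 0 of 28, against 0.0625%. An unadjusted p under 0.05 from limma was found for 2 in the lung and 3 in the heart. The share of all transcripts at that level was not counted, so these counts are not read as a result. Both of the lung transcripts at that level belong to Gstcd, and their shares are given as a description. ENSMUST00000029651.11, its main coding transcript, made up 99.4%, 92.0% and 96.1% of the estimated Gstcd reads in WT lungs and 74.4%, 53.8% and 60.0% in KO lungs. ENSMUST00000161577.8, for which no coding sequence is annotated, made up 0%, 3.77% and 0% in WT lungs and 20.6%, 8.01% and 40.0% in KO lungs. The groups did not overlap for either share, while the gene value of Gstcd did not separate the genotypes. The log2 difference of the main transcript, KO minus WT, was −0.95 (SE 0.26, adjusted p = 0.748 from limma), and these shares rest on 167 to 394 estimated counts a lung library. In the hearts the same transcripts overlapped, with 0 to 18.3% for the second.

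Over all locus genes, 10 of 29 shares did not overlap between WT lung and WT heart, 3 of 29 between KO and WT lungs and 3 of 27 between KO and WT hearts. The corresponding percentages over the transcripts of all genes were 22.3%, 9.9% and 8.49%. The exact test gave p = 0.10 for each such share, or 0.531 after Benjamini-Hochberg adjustment over all shares tested. Thsd4 shows how far an estimate can jump between libraries, since ENSMUST00000098660.10 was at 0 in 9 libraries and at 34.7%, 24.6% and 40.0% in lung KO replicate 2 and heart WT replicates 2 and 3. For Adgrg6 an 84-nucleotide cassette exon was in 11.4% ± 1.21 (SD, n = 3) of the spanning reads in WT lungs and 9.31% ± 3.31 in WT hearts, and was at 34.0% in 1 KO heart on about 143 estimated counts of the gene.

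Each locus gene was also set beside the gene with the most similar profile over the 12 libraries, by the root mean square difference of log2 values centred on each gene's mean. The nearest genes were Calcrl for Adgrg6 (0.18 log2 units), Ism1 for Npnt (0.28), Pifo for Hhip (0.36) and Mast3 for Thsd4 (0.13). For Tns1 the nearest was Pik3r2 (0.11), for Gstcd Nadk (0.12), for Ptch1 Siglec1 (0.14), for Fam13a Rbbp6 (0.14), for Mfap2 Scart1 (0.28) and for Htr4 Adgrg2 (0.45). None of the nearest genes was another locus gene. Among the locus genes themselves the closest pair was Ptch1 and Gstcd, at 0.27. The nearest locus gene ranked 79th of 17665 genes in likeness to Npnt. It ranked between 279th and 485th for Adgrg6, Mfap2, Thsd4, Ptch1, Hhip and Gstcd. The rank was 1000th of 17666 for Htr4, and 4854th and 5115th of 17665 for Fam13a and Tns1. These are descriptions over libraries that share mice and tissues.

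The wider pathways gave the setting of the locus genes. No gene of the 8 pathway lists passed between KO and WT in either tissue (limma). This was 0 of 104 tested in the lung and 0 of 99 in the heart, against 0.0665% and 0.085% of all genes. An unadjusted p under 0.05 was found for 5 and 12, against 981 of 16551 and 1141 of 15303 genes in all. In WT mice 38 of 105 were higher and 17 lower in the lung. The shares over all genes tested, for this and each list below, were 29.7% higher and 20.5% lower. In the hedgehog list 3 of 15 tested were higher and 2 lower in WT lungs. The ligand gene Shh read 6.34, 5.99 and 5.90 in WT lungs and 0, 0 and 2.02 in WT hearts, and the coreceptor gene Boc was higher by 1.34 (SE 0.21, adjusted p = 0.000621). Disp1, whose protein releases the ligands, was lower by 1.54 and Hhat, whose protein palmitoylates them, by 0.75. Of the 15 genes tested, 8 had a higher and 7 a lower mean in WT lungs. Their median difference was 0.30 log2 units, as over all genes tested.

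In the list of microfibril and elastic fibre partners 7 of 22 were higher and 4 lower in WT lungs, against 29.7% and 20.5% of all genes. Mfap4 was higher by 3.24 (SE 0.35) and Lox, which encodes the crosslinking enzyme lysyl oxidase, by 3.17 (SE 0.21), while Fbln1 was lower by 2.14 (SE 0.29) and Adamtsl5 by 1.48 (SE 0.23), each with an adjusted p of 0.000669 or less from limma. The median over the list was 0.30 log2 units, as over all genes. Of the partners of nephronectin and tensin 7 of 15 were higher and 1 lower. Egfl6, the gene most closely related to Npnt, was higher in WT lungs by 7.42 (SE 0.27) and Itga8 by 3.49 (SE 0.20). Itga5 was lower by 1.67 (SE 0.27). The gene of the other chain of the nephronectin receptor, Itgb1, did not pass. It read lower in the lung, at 13.56, 13.53 and 13.53 in WT lungs and 13.90, 14.08 and 13.98 in WT hearts. Among ligands and relatives of Adgrg6, 2 of 9 were higher and 2 lower. Adgrg1 was higher by 1.13 and Adgrg3 by 1.05, while Lama2, which encodes a laminin chain, was lower by 1.66 and Gnas, the stimulatory G protein alpha chain, by 0.96.

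Of the serotonin receptors besides Htr4, 5 of 13 could be tested between WT tissues and none passed all thresholds (limma). An unadjusted p under 0.05 was found for 4 of these 5, and for 11041 of all 16636 genes tested. Of the 13, 5 were listed at 0 in all WT lungs and 6 in all WT hearts. In the list of Fam13 relatives and beta-catenin destruction 4 of 10 were higher in WT lungs and none lower, against 29.7% and 20.5% of all genes. Axin2 was higher by 1.57 (SE 0.20) and Fam13b by 1.01 (SE 0.23), where Fam13a did not pass. Near Npnt and Gstcd on chromosome 3, 1 of 4 neighbours was higher and 1 lower. Arhgef38 was higher in WT lungs by 9.15 (SE 0.54) and Ppa2 lower by 2.03 (SE 0.20), so neighbours did not share a direction. Ints12 overlaps Gstcd head to head by 326 bases on the opposite strand. It did not pass between WT tissues or genotypes and was higher in KO lungs than in KO hearts by 0.62 (SE 0.14, adjusted p = 0.00408). Of 26 further lung function locus genes tested between WT tissues, 14 were higher in the lung and 7 lower, against 29.7% and 20.5% of all genes. The surfactant gene Sftpd (by 10.89) and Ager (by 10.27) led the higher genes, and Dsp, the desmoplakin gene, was lower by 4.03 and Armc2 by 1.69. The median over these 26 genes was 0.64 log2 units.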

How the data were processed

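Strand-specific total RNA libraries of lung and heart were quantified by the authors with Salmon 1.10.0 against GENCODE vM33 transcripts of mm39, and the submitters' processing notes also list cutadapt, STAR and limma 3.42.2. The authors deposited transcript values as log2(1 + estimated count) and gene values on a log2 scale that carry 1 additive constant for each library, between −0.63 and 0.80 and absent from zeros. How the constants were set is not given in the sources used here. The constants were added to transcript values before the libraries were compared. Fold changes are differences of log2 values and understate those of genes with few reads.

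Groups were read from the titles. Gene values of at least 3.46 in 3 libraries were tested with lmFit and eBayes with a trend (limma 3.58.1, R 4.3.3), called at adjusted p under 0.05, 1.5-fold or more, and 6 or more as the mean of the higher group, or the adjusted p alone for the difference of genotype effects. A gene could reach 3.46 through 1 of the groups compared alone, as Hhip, Shh, Egfl6 and Arhgef38 did through WT lungs. The members and lists were chosen with earlier results of these data known. Named were the 10 members, Adam19, the gene of nearest profile for each member and, from each pathway list, genes called between genotypes and up to 2 called in each direction between WT tissues. Itga8, Itgb1 and the marker genes Tagln, Myh11, Cnn1, Acta2, Des, Foxj1, Scgb3a2, Hopx, Abca3 and Sftpc were named after their values were seen. So were Gstcd's neighbour Ints12 and single transcripts and exons. Shares of transcripts and exons were compared with exact permutation tests (scipy 1.17.1). Exons were read from GRCm39 with GENCODE vM39, the same assembly, in which 54 of the 71 member transcripts have the deposited version and all 71 match without it. The main fits of gene and transcript values between pairs of groups were tested on simulated data. The fit of the difference of genotype effects and the alternative fits were not.

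The lung and heart of a mouse are paired by its identifier, but their deviations from the group means correlated at only 0.08, 0.24 and −0.13 in WT and 0.17, −0.13 and −0.03 in KO mice (13005 genes). Replicates correlated at 0.953 to 0.987, and none were duplicates. Alternatives were the mouse as a replicate block, other filters, scalings and models, limma-voom, summed transcripts and each library left out. Protein sequences were not used here.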

Additional observations from a re-analysis of the deposited data

How the results depend on the processing

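With 3 mice a group, small differences between genotypes were not detectable, and Htr4 and heart Hhip rest on counts near 0. No locus gene passed between the genotypes in any of the 126 lung or 112 heart alternative values, with adjusted p-values of at least 0.339 and 0.0942. The mouse as a replicate block changed no locus gene call, with WT lung minus heart values of 7.21 for Hhip and 5.18 for Npnt, and moved the genes called for unequal genotype effects from 1 to 3, while equal library medians gave 0. Equal library totals moved the median lung minus heart difference of all genes from 0.30 to 0.73 in WT and from 0.28 to 0.96 in KO mice and that of KO minus WT lungs from 0.01 to 0.29, and raised the share of calls that were higher in the lung from 59.2% to 73.9% and from 58.1% to 79.1%. It turned the sign of Thsd4 (0.20) and Gstcd (0.24) in KO against WT lungs, of Tns1 (0.0126) and Gstcd (0.0287) in hearts, and of Tns1 between WT (0.0132) and KO (0.63) tissues. Summed transcripts turned Thsd4 in the lung (0.16), and equal medians turned Gstcd in the difference of genotype effects (0.0345). The cause was not tested, and of these values Tns1 between KO tissues alone passed.

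With 10 counts required in every library, fewer genes were tested, and 1 gene in the lung and 7 in the heart passed between genotypes, against 11 and 13, and 11 locus gene transcripts between WT tissues, against 18. With 1 library left out, the genes called in the heart ranged from 10 to 21, with 21 without heart KO replicate 2. In KO against WT lungs the ranges were −0.28 to 0.051 for Thsd4, −0.18 to 0.044 for Gstcd and −0.14 to 0.21 for Npnt, in hearts −0.14 to 0.13 for Gstcd, −0.38 to 0.00697 for Adgrg6, −0.42 to 0.082 for Fam13a and −0.096 to 0.047 for Tns1, and between KO tissues −0.083 to 0.028 for Tns1, and none of these passed.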
